A study of Mus musculus with 6 samples.

Results

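The genes described here copy the genome. They are 44 genes, chosen by name, that license replication origins, open and unwind the DNA, synthesize and join the new strands, or make the deoxynucleotides these enzymes use. They were read in M0505 cells, a line of mouse ovarian surface epithelial cells established from FVB/N mice, and in STOSE cells, the transformed line that appeared after M0505 cells had been passaged for a long time. Total RNA of 3 M0505 and 3 STOSE cultures, labelled as biological replicates, was read on Affymetrix arrays of the Mouse Gene 1.0 ST design, 1 culture to an array. Both lines grew in the same medium, an α-minimal essential medium with fetal calf serum, epidermal growth factor, ITSS and antibiotics, and neither carried an engineered allele or received a treatment. Each group is 1 cell line, so the p-values below measure the spread between cultures of these lines, and transformation and time in culture cannot be told apart.

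Of the 44 listed genes, 37 stood on the array under their own symbol, out of 20405 genes with a symbol. The other 7, Orc1 to Orc6 and Cdc45, were found under an older symbol such as Orc1l or Cdc45l. They are described apart and are not in the counts of the 37. A gene with several probe sets was read from the one with the highest mean. Values are robust multi-array average (RMA) values on the log2 scale, so 1 unit is a doubling, and a log2 fold change is the STOSE mean minus the M0505 mean. The term "rose" is used at an adjusted p under 0.05 by limma with Benjamini-Hochberg adjustment over the 20405 genes, and a gene was called higher or lower where the change was also at least 2-fold.

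Replication begins in G1, when the origin recognition complex, CDC6 and CDT1 load the ring-shaped MCM2 to MCM7 helicase onto DNA. In S phase CDC45 and the GINS complex join the ring and turn it into a moving helicase. Polymerase α and primase start each strand, polymerases δ and ε extend it on the sliding clamp PCNA, which replication factor C loads, and FEN1 and DNA ligase I join the pieces of the lagging strand. Ribonucleotide reductase and thymidylate synthase feed the fork with deoxynucleotides. Many of these genes are textbook targets of E2F transcription factors, which the retinoblastoma protein holds in check outside S phase.

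Of the 37 genes, 19 were called higher in STOSE cells and 0 lower, beside 4.90% of all genes called higher and 7.59% called lower. Without the fold threshold 34 rose and 0 fell, where 31.6% of all genes were higher and 24.8% lower. The median log2 fold change of the 37 was 1.00, against 0.08 for all genes, and the single values ran from -0.07 to 1.60. In 34 of the 37 every STOSE array read above every M0505 array, a separation that 37.6% of all genes showed. The 3 genes that did not pass the test were Gmnn, Gins4 and Rrm1, and each belongs to a group whose other members among the 37 rose. RNA was taken from whole cultures, so a larger share of cells in S phase and more RNA per replicating cell cannot be told apart.

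**Figure D1:**
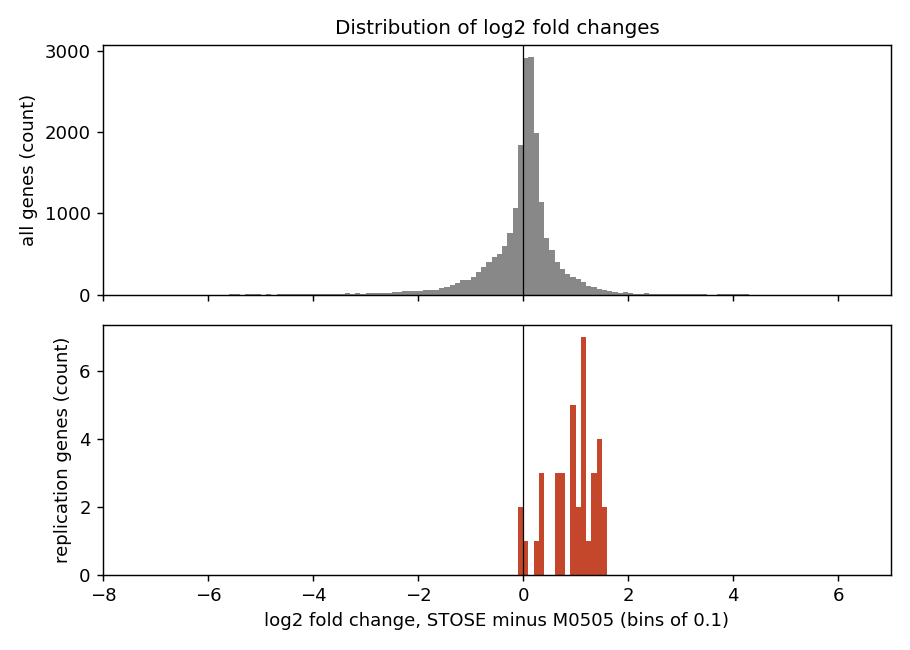
Log2 fold change (STOSE minus M0505, x axis, in bins of 0.1) of all 20405 genes and of the 37 replication and nucleotide genes, with the number of genes on each y axis. The 37 genes lie between -0.07 and 1.60 with a median of 1.00, while all genes centre on 0.08.

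By role, the median log2 fold change was 1.39 over the 5 helicase activation genes, 1.23 over flap endonuclease and ligase, 1.14 over the 3 licensing genes, 1.06 over the 6 genes of the MCM ring, 1.03 over the 8 genes of clamp, clamp loader and RPA, and 0.95 over the 8 polymerase and primase genes. The 5 nucleotide genes had a median of 0.36. Orc1 to Orc6, of licensing, and Cdc45, of helicase activation, are not in these medians. All 37 genes read above 4.74, the value under which 95% of the readings of 1134 probe sets for olfactory receptors fell, which was taken as background, on each of the 6 arrays.

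**Figure D2:**
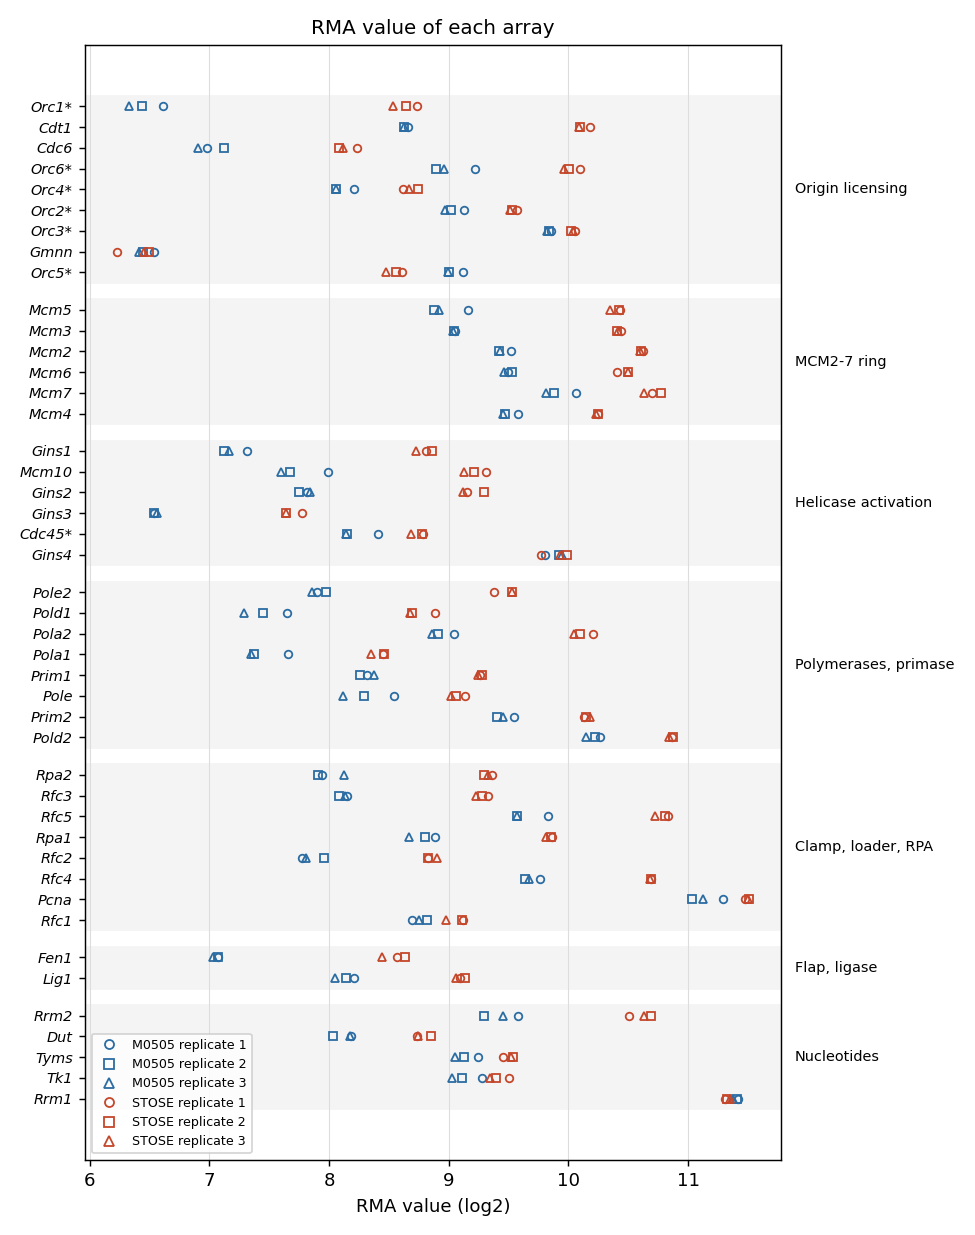
RMA value (log2) on each of the 3 M0505 and 3 STOSE arrays for the 44 listed genes, grouped by role, with an asterisk on the 7 genes read under an older symbol. STOSE arrays lie above M0505 arrays for most genes, overlap them for Gins4 and Gmnn, and lie below them for Orc5 and Rrm1.

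Promoter sequence was looked at because so many of these genes are known E2F targets. RefSeq (GRCm38.p6) gave windows from 250 bases before to 50 after the annotated start for 36 of the 44 genes, and gave none for Gins1, Gins2, Gins4, Gmnn, Mcm4, Pole, Prim2 and Rfc2. A pair of common forms of the E2F motif, TTTCCCGC and TTTGGCGC, was searched on both strands. At least 1 match stood in 12 of the 36 genes (33.3%), beside 486 of 27025 genes with an entry (1.80%) and 314 of the 9973 array genes above background in either line (3.15%). These shares describe the windows and carry no test. The following promoters, given 5′ to 3′ on the strand of the gene for the 180 bases before the start, are shown as 4 of the 7 genes that rose and held an E2F form before the start, with the matching bases in capitals. They are Mcm5 (chr8:75109329-75109508, plus strand), Mcm6 (chr1:128359706-128359885, minus strand), Cdc6 (chr11:98907971-98908150, plus strand) and Gins3 (chr8:95633379-95633558, plus strand).
Mcm5: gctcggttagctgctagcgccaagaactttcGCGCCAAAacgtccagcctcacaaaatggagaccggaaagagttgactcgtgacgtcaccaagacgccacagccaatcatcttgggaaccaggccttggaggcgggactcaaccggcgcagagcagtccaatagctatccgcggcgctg
Mcm6: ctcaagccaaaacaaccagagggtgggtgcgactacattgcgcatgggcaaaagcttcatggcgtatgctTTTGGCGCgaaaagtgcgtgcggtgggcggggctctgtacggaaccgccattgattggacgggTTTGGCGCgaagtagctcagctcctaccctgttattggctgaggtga
Cdc6: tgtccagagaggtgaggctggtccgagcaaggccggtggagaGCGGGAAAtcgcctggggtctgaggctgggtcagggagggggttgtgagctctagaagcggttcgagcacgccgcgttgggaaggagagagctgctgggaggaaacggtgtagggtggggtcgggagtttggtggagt
Gins3: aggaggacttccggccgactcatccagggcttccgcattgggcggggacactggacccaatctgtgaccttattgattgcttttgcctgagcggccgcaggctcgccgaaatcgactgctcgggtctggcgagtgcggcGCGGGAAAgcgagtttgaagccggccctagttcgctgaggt

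In 5 further genes that rose the E2F form lay at or after the start, and Mcm3 held both forms. Stretches of 30 bases are shown for Cdt1 (chr8:122568035-122568064, plus strand), Pole2 (chr12:69228162-69228191, minus strand), Rfc3 (chr5:151651190-151651219, minus strand), Pold1 (chr7:44548766-44548795, minus strand) and Mcm3 (chr1:20820266-20820295, minus strand), again with the match in capitals.
Cdt1: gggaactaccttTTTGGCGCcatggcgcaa
Pole2: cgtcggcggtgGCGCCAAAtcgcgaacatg
Rfc3: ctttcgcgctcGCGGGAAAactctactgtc
Pold1: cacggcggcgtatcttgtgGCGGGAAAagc
Mcm3: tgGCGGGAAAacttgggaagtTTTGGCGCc

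Rrm1 is shown as a gene that did not pass the test. Lack of an E2F form was not particular to it, since the called genes Mcm2, Mcm10, Pola2, Rfc5, Rpa1, Rpa2, Fen1 and Rrm2, the partner of Rrm1, held neither form in their windows. In Rrm1 the 180 bases before the start (chr7:102441515-102441694, plus strand) hold neither E2F form, and the capitals here mark CCAAT, the letters of the box that NF-Y binds.
Rrm1: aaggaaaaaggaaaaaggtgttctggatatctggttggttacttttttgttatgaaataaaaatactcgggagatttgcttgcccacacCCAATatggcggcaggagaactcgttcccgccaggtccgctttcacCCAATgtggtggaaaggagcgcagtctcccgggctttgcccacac

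Pola1, Orc3 and Mcm7, the last in the second of its windows, also held an E2F form before the start and complete the 12 genes. Of the 16 genes called higher that have a window, 8 held a form, and of the 13 that were on the array under their symbol and not called, 3 did. Among all 677 array genes called higher with a window, these 8 included, 37 held one (5.47%). CCAAT stood in 22 of the 36 genes (61.1%), in 41.1% of all genes and in 42.1% of array genes above background in either line. TTTGAA, a form of the CHR element of late cell cycle genes, stood in 5 of the 36 (13.9%) and in 20.2% of all genes. Among array genes above background in either line the share with TTTGAA was 13.8%, near that of the 36. Matches of different motifs overlapped in 0 cases in the 44 windows of the 36 genes. A match is a description of letters and not of binding, and no match says only that these letters are not in the window.

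Of the 3 licensing genes under their own symbol, Cdt1 and Cdc6 were higher in STOSE cells and Gmnn, which encodes an inhibitor, was not. Orc1 to Orc6, also of this step, are given further below, and Orc5 among them fell. Cdt1, which brings the MCM ring to the origin, read 8.66, 8.62 and 8.63 on the M0505 arrays and 10.18, 10.10 and 10.09 on the STOSE arrays. The lines were far apart beside a spread of at most 0.05 (SD, n = 3) within a line, and Cdt1 was 2.80-fold higher in STOSE cells (log2 fold change 1.49, SE 0.06, limma adjusted p = 2.22e-07). Cdc6, the ATPase that loads the ring together with CDT1, read 6.98, 7.12 and 6.90 in M0505 and 8.24, 8.09 and 8.11 in STOSE cells. All 3 STOSE arrays were above the M0505 arrays, and the difference was 2.21-fold (1.14, SE 0.08, limma adjusted p = 4.35e-06).

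Gmnn encodes geminin, which binds CDT1 and blocks a second round of loading. It read 6.54, 6.45 and 6.41 in M0505 and 6.23, 6.49 and 6.45 in STOSE cells, so the lines overlapped. Its log2 fold change of -0.07 (SE 0.08, limma adjusted p = 0.482) changed sign, to 0.13 and still short of the threshold, after a further quantile normalization and after centring on the genes with a symbol. Taken within each array, Cdt1 minus Gmnn was 1.56 (SE 0.12) higher in STOSE cells, with no overlap between the lines.

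Such differences between partners were computed for 42 pairs of genes of the same complex or step, as the value of one gene minus the other within an array. In 33 of the 42 pairs the lines did not overlap. No share over pairs of other genes was computed, and many of the pairs hold the same gene, so this count has no baseline. Of all single genes, 37.6% had every STOSE array above every M0505 array and 27.0% had every one below. With 3 arrays against 3, the two-sided exact permutation test cannot give a p below 0.1, which is 0.127 after Benjamini-Hochberg adjustment over the 42 pairs, so no pair could pass and each is given by its size and SE.

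All 6 genes of the MCM ring rose, and 3 of them were called. Mcm5 read 9.16, 8.88 and 8.91 in M0505 and 10.43, 10.43 and 10.35 in STOSE cells, a 2.67-fold difference (1.42, SE 0.08, limma adjusted p = 2.27e-06). Mcm3 read 9.05, 9.04 and 9.04 against 10.44, 10.40 and 10.42, a 2.59-fold difference (1.38, SE 0.05, limma adjusted p = 2.26e-07). Mcm2 read 9.52, 9.42 and 9.43 against 10.63, 10.61 and 10.60, a 2.23-fold difference (1.16, SE 0.06, limma adjusted p = 8.47e-07). STOSE arrays were higher throughout, and the Mcm3 arrays of a line lay within an SD of 0.02.

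The remaining subunits of the ring rose by less. Mcm4 had the smallest change, from 9.58, 9.47 and 9.45 in M0505 to 10.25, 10.24 and 10.23 in STOSE cells, which is 1.67-fold (0.74, SE 0.06, limma adjusted p = 1.27e-05) with no overlap. Mcm6 rose by 0.97 and Mcm7 by 0.78. Although the subunits work as a ring with 1 copy of each, 13 of their 15 pairs separated the lines. This count also has no share over other pairs beside it. The Mcm5 change exceeded that of Mcm7 by 0.63 (SE 0.04) and that of Mcm4 by 0.68 (SE 0.05). Mcm3 and Mcm5 did not separate the lines (-0.04, SE 0.09), and neither did Mcm4 and Mcm7 (-0.04, SE 0.05).

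Of the 5 helicase activation genes 4 were called, among them the gene with the largest rise of the 37, and 1 did not pass the test. Gins1, a subunit of the 4-membered GINS complex, read 7.31, 7.13 and 7.16 in M0505 and 8.81, 8.86 and 8.72 in STOSE cells, a 3.02-fold difference (1.60, SE 0.07, limma adjusted p = 5.00e-07). Mcm10, which helps the assembled helicase to start unwinding, read 7.99, 7.67 and 7.60 against 9.31, 9.21 and 9.13 (1.46, SE 0.11, limma adjusted p = 7.46e-06). Gins2 read 7.81, 7.75 and 7.84 against 9.15, 9.29 and 9.12 (1.39, SE 0.07, limma adjusted p = 7.61e-07). STOSE arrays were above M0505 arrays for each of these genes and for Gins3, which was called with a log2 fold change of 1.14.

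Gins4, the remaining GINS subunit, read 9.80, 9.92 and 9.94 in M0505 and 9.77, 9.99 and 9.93 in STOSE cells. Its arrays overlapped between the lines, and the log2 fold change was 0.01 (SE 0.08, limma adjusted p = 0.955). Centring the arrays on the genes with a symbol moved it to 0.21 with an adjusted p of 0.0429. The Gins4 change was smaller than that of Gins1 by 1.59 (SE 0.12), of Gins2 by 1.38 (SE 0.08) and of Gins3 by 1.13 (SE 0.11), and none of these differences overlapped between the lines. Gins4 lies on chromosome 8 with Gins2 and Gins3, and the part of gene copy number in these differences was not tested.

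Every polymerase and primase gene rose, and 3 of 8 were called. Pole2, the second subunit of polymerase ε, read 7.90, 7.97 and 7.86 in M0505 and 9.38, 9.53 and 9.53 in STOSE cells, a 2.97-fold difference (1.57, SE 0.07, limma adjusted p = 4.06e-07). Pold1, the catalytic subunit of polymerase δ, read 7.65, 7.45 and 7.29 against 8.89, 8.70 and 8.68 (1.29, SE 0.10, limma adjusted p = 1.17e-05). Pola2, the accessory subunit of polymerase α, read 9.05, 8.91 and 8.86 against 10.21, 10.10 and 10.05 (1.18, SE 0.07, limma adjusted p = 3.01e-06). No array of one line overlapped the other for these genes.

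Pold2, the accessory subunit of polymerase δ, had the smallest change of the polymerases. It read 10.26, 10.23 and 10.15 in M0505 and 10.87, 10.87 and 10.84 in STOSE cells, 1.57-fold without overlap (0.65, SE 0.06, limma adjusted p = 2.30e-05). Between these stood Pola1 at 0.96, Pole at 0.76, and the primase subunits Prim1 at 0.94 and Prim2 at 0.69. Partners again rose unequally. Pold1 exceeded Pold2 by 0.64 (SE 0.10), and Pole2 exceeded the catalytic subunit Pole by 0.81 (SE 0.14). Pola1 and Prim1 differed by 0.02 (SE 0.11) and overlapped.

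All 8 genes of clamp, loader and RPA rose, and 5 were called. Rpa2, a subunit of the protein that coats single-stranded DNA, read 7.94, 7.91 and 8.13 in M0505 and 9.36, 9.29 and 9.32 in STOSE cells (1.33, SE 0.07, limma adjusted p = 1.38e-06). Rfc3, of the clamp loader, read 8.15, 8.08 and 8.14 against 9.33, 9.28 and 9.23 (1.16, SE 0.06, limma adjusted p = 9.14e-07). Rfc5 read 9.83, 9.57 and 9.57 against 10.83, 10.81 and 10.72 (1.13, SE 0.08, limma adjusted p = 7.57e-06). The STOSE arrays of these genes were all higher, and Rpa1 was called as well, at 1.06.

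Rfc1, the large subunit that completes the replicative clamp loader, changed least. It read 8.69, 8.82 and 8.75 in M0505 and 9.12, 9.11 and 8.98 in STOSE cells, 1.24-fold without overlap (0.32, SE 0.07, limma adjusted p = 0.00398). Its change was smaller than those of Rfc2 to Rfc5 by 0.68 to 0.84, with no overlap, whereas 5 of the 6 pairs among those small subunits overlapped. Rfc2 and Rfc4 stood on either side of the 2-fold threshold, at 2.01-fold and 1.99-fold.

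Pcna, the sliding clamp and a common marker of proliferating cells, rose by 0.35 (SE 0.07, limma adjusted p = 0.00400), from a mean of 11.15 ± 0.13 to 11.50 ± 0.02 (SD, n = 3). A second Pcna probe set gave 0.34 and read within 0.01 of the first on each array. Whether these probe sets share probes was not tested, so they may not be independent readings. Tk1 had 2 probe sets as well, at 0.28 and 0.31, and those of Fen1 gave 1.49 for the brighter and 0.79 for the dimmer. Probe sets of a gene thus gave the same direction in all 3 genes that had more than 1.

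Fen1, which trims the flaps of the lagging strand, read 7.08, 7.07 and 7.03 in M0505 and 8.57, 8.63 and 8.45 in STOSE cells, a 2.81-fold difference (1.49, SE 0.07, limma adjusted p = 4.59e-07). Lig1, the ligase that seals the nicks, read 8.21, 8.14 and 8.05 against 9.10, 9.14 and 9.06, a 1.95-fold difference (0.97, SE 0.06, limma adjusted p = 3.96e-06). Both separated the lines on all arrays, and Lig1 stayed just under the 2-fold threshold.

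Of the 5 nucleotide genes 4 rose and 1 was called. Rrm2, the small subunit of ribonucleotide reductase, was called, with 9.58, 9.29 and 9.45 in M0505 and 10.51, 10.69 and 10.63 in STOSE cells (1.17, SE 0.09, limma adjusted p = 8.06e-06). Rrm1, the large subunit, read 11.42, 11.41 and 11.38 against 11.31, 11.33 and 11.35. All STOSE arrays of Rrm1 were below the M0505 arrays, as in 27.0% of all genes, yet the difference of -0.07 (SE 0.05) did not pass the test (limma adjusted p = 0.270), and it was 0.13, also short of the threshold, with arrays centred on the genes with a symbol. The subunits parted by 1.24 (SE 0.09) within arrays, without overlap.

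Of the other nucleotide genes, Dut, which removes dUTP, rose by 0.64 (1.56-fold), Tyms, which makes thymidylate, by 0.36 (1.28-fold), and Tk1, the thymidine kinase of S phase cells, by 0.28 (1.21-fold, limma adjusted p = 0.0173).

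**Figure D3:**
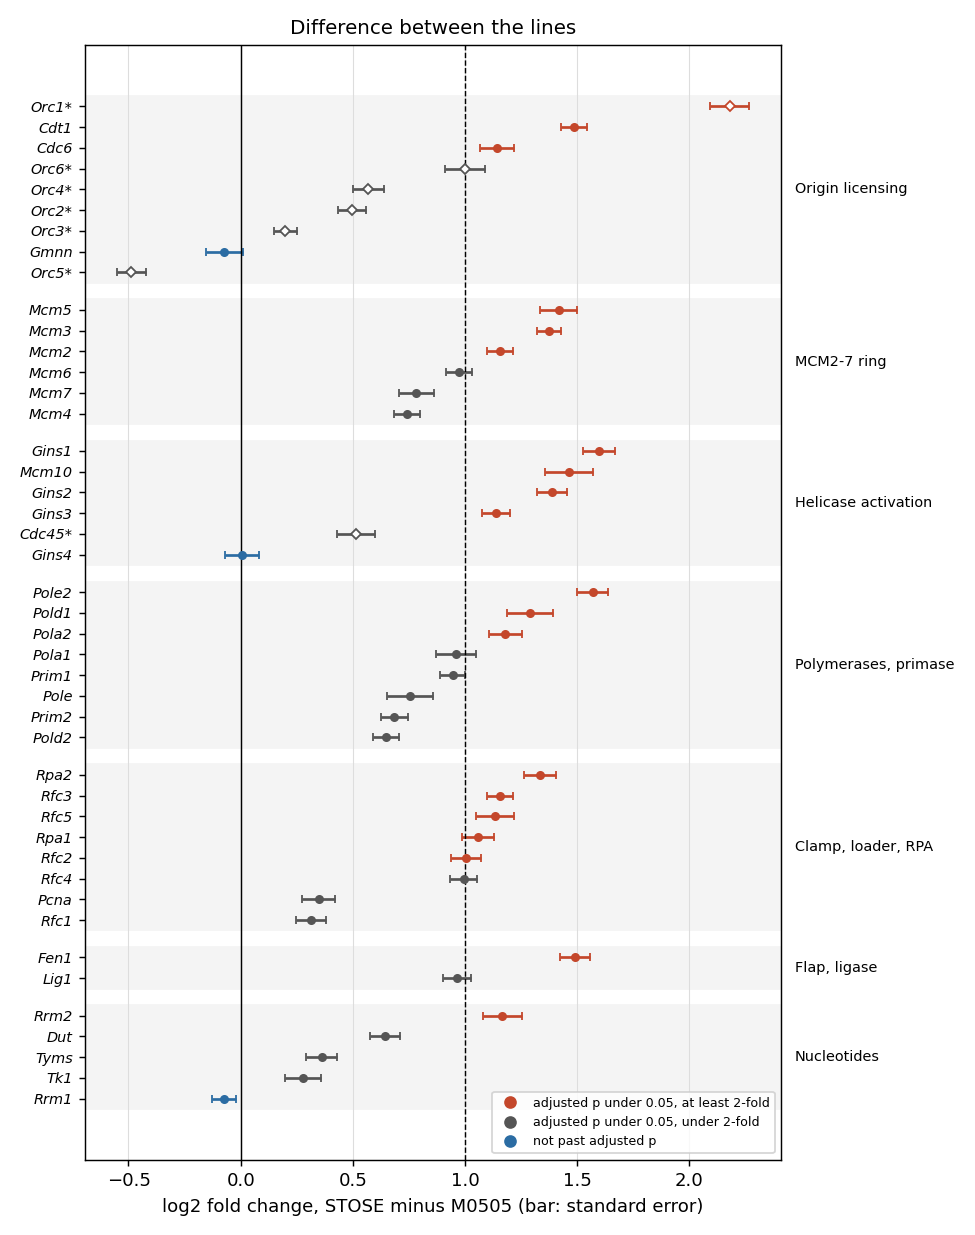
Log2 fold change (STOSE minus M0505, bars are the SE) of the 44 listed genes by role, with filled circles for genes under their own symbol, open diamonds for older symbols, red for calls of at least 2-fold, grey for adjusted p alone and blue for genes short of it. Gins4, Gmnn and Rrm1 lie near 0 beside partners at 1.60, 1.49 and 1.17.

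The 7 genes under older symbols included the largest change of the list. Orc1, the largest subunit of the origin recognition complex, read 6.61, 6.43 and 6.33 in M0505 and 8.74, 8.64 and 8.54 in STOSE cells, a 4.53-fold difference (2.18, SE 0.09, limma adjusted p = 2.87e-07). Orc5 moved the other way, from 9.12, 9.00 and 8.99 to 8.61, 8.56 and 8.48 (-0.49, SE 0.06, limma adjusted p = 0.000272). Neither gene overlapped between the lines. Orc6 rose by 1.00, just short of 2-fold, Orc4 by 0.57, Cdc45, the partner of GINS in the helicase, by 0.51, Orc2 by 0.50 and Orc3 by 0.20. With these 7 the list had 20 genes called higher and 0 lower of 44, 40 that rose and 1 that fell, and a median of 0.98.

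The replicates of a line were close. The median SD of the 37 genes was 0.08 among M0505 and 0.06 among STOSE arrays, beside 0.08 in both lines for all genes. The lowest Pearson correlation over genes was 0.997 within a line and 0.943 between lines. M0505 replicate 1 stood a little apart in these genes. It was the highest M0505 array for 27 of the 37, where it was the highest for 36.5% of all genes, and its median deviation from the line mean was 0.07 against -0.03 and -0.04 for the other replicates. STOSE replicate 3 was the highest of its line for 4 of the 37, where it was the highest for 30.1% of all genes. STOSE replicates 1 and 2 were the highest for 17 and 16 of the 37, beside 40.9% and 29.0% of all genes. Leaving out M0505 replicate 1 gave 21 calls and a median of 1.06, with 5.22% of all genes called higher. The difference between the lines was thus as large without it.

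The genes lie on 14 chromosomes. Chromosome 5 held 7 (Mcm7, Pole, Rfc1, Rfc2, Rfc3, Rfc5 and Tyms), of which 3 were called, and chromosome 8 held 5 (Cdt1, Gins2, Gins3, Gins4 and Mcm5), of which 4 were called. The median log2 fold change of all genes was 0.00 on chromosome 5 and 0.12 on chromosome 8, and it ran from -0.05 to 0.18 over the 14 chromosomes.

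The level of all genes depended somewhat on the scaling of the arrays. Centring each array on the genes with a symbol, a setting chosen after the data were seen, raised the median log2 fold change of all genes by 0.20. Of all genes called, 39.2% were higher in STOSE cells as deposited and 55.5% with this centring. The median of the 37 genes moved with it to 1.20. The counts of the 37 called higher were 22 after a further quantile normalization, 20 with arrays centred on their median and 24 with the centring on genes, with 0 lower in each. In the same order 5.63%, 5.07% and 7.18% of all genes were called higher, beside 4.90% as deposited. The shares of all genes called lower were 6.91%, 7.42% and 5.77%, beside 7.59% as deposited.

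The named genes are part of a larger machinery, and 38 other replication factors on the array were counted in the same way. Of the 38, 11 were called higher and 0 lower, 32 rose and 3 fell, and their median log2 fold change was 0.72. Over all genes 4.90% were called higher and 7.59% lower, 31.6% rose and 24.8% fell. Clspn, which carries the checkpoint signal at the fork, rose 3.40-fold (1.77), Recql4, a helicase needed for origin firing, 3.30-fold (1.72), and Dtl, which targets CDT1 for destruction in S phase, 3.09-fold (1.63). Mtbp and Ticrr, partners in origin firing, rose 2.83-fold and 2.47-fold, and Chaf1a and Asf1b, which place histones behind the fork, 2.66-fold and 2.33-fold. Uhrf1, which recognizes newly copied methylated DNA, rose by 1.38, and the factors of alternative clamp loaders Dscc1, Atad5 and Chtf18 rose by 1.29, 1.29 and 1.26. The 3 that fell were Mcm9 (-0.62), Asf1a (-0.62) and Pold4 (-0.44).

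Among 35 other genes of nucleotide metabolism 10 were called higher and 1 lower, 26 rose and 4 fell, and the median was 0.69. The shares of all genes were 4.90%, 7.59%, 31.6% and 24.8%, in that order. Impdh1, which commits purines to guanine nucleotides, read 6.17, 6.01 and 6.18 in M0505 and 8.20, 8.31 and 8.32 in STOSE cells, a 4.45-fold difference (2.15, SE 0.07, limma adjusted p = 8.91e-08) without overlap. Impdh2, its paralog, rose by 1.38. Shmt1, Mthfd1 and Mthfd2, of the folate cycle, rose by 1.59, 1.10 and 1.10, and Pfas, Adss and Adsl, of purine synthesis, by 1.51, 1.11 and 1.01. Cad, which opens pyrimidine synthesis, rose 2.83-fold, and Samhd1, which breaks deoxynucleotides down, 2.15-fold. Ctps2, a CTP synthase, read 9.21, 9.48 and 9.36 against 7.87, 7.91 and 7.81 and was called lower (-1.49, SE 0.08, limma adjusted p = 1.16e-06), with no array in common.

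A list of 19 genes around the E2F and retinoblastoma families, which control S phase genes, held changes in both directions. It also held Lin9, Lin37, Lin52, Lin54, Mybl2 and Foxm1, which belong to neither family. Of the 19 genes 6 were called higher and 1 lower, 10 rose and 5 fell, and the median was 0.50. Over all genes the shares were 4.90%, 7.59%, 31.6% and 24.8%, in that order. Mybl2, Lin9 and Foxm1 were among the calls. E2f7, an E2F of the repressing class, had the largest difference, with 6.93, 6.84 and 6.90 in M0505 and 9.64, 9.54 and 9.58 in STOSE cells (6.50-fold, 2.70, SE 0.06, limma adjusted p = 1.09e-08). Mybl2, a cofactor of the MuvB complex, rose by 2.00, E2f8, also a repressor, by 1.65, Lin9, of MuvB, by 1.39, Foxm1, a factor of late cell cycle genes, by 1.17, and E2f2, an activator, by 1.06. E2f1, the best known activator, was 0.05 (limma adjusted p = 0.481). Rbl2, which encodes the pocket protein p130 of resting cells, was called lower (-1.10, SE 0.08, limma adjusted p = 9.52e-06), a call lost after a further quantile normalization and after centring on the genes, and Rb1 fell by 0.51.

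Polymerases for damaged DNA were counted as a set that handles DNA without being part of the standard fork. Of 11 genes of translesion and repair synthesis 3 were called higher and 1 lower, and 4 rose and 5 fell. For all genes the shares were 4.90%, 7.59%, 31.6% and 24.8%, in that order. The list median of 0.06 was near the 0.08 of all genes. Polq, of end joining, rose by 1.32, Polh, which passes ultraviolet lesions, by 1.24, and Mad2l2, a subunit of polymerase ζ, by 1.22. Rev3l, the catalytic subunit of that same polymerase ζ, fell by 1.24.

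**Figure D4:**
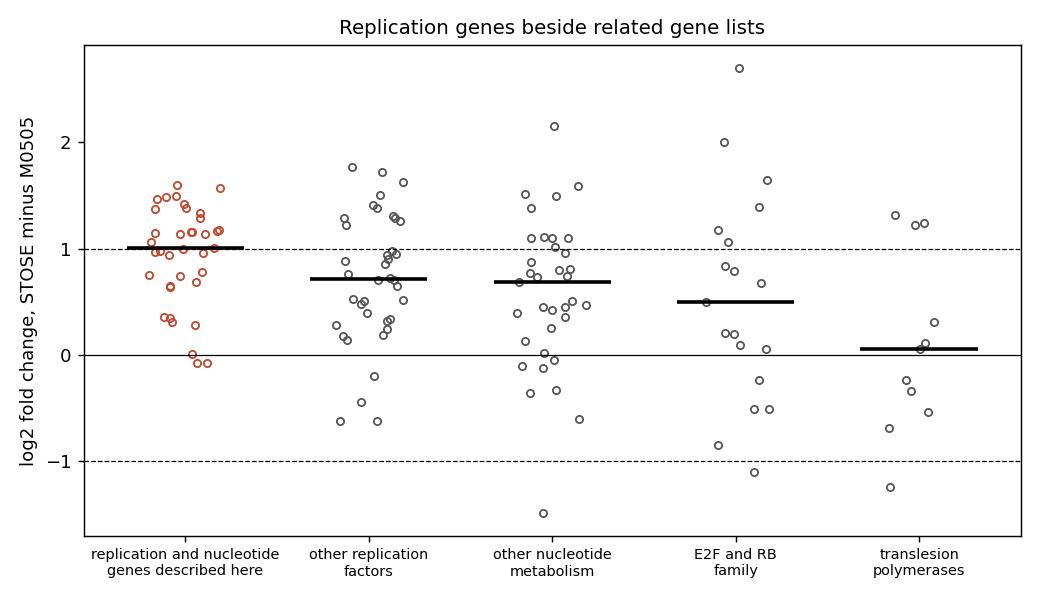
Log2 fold change (STOSE minus M0505) of single genes, as points, in the 37 replication and nucleotide genes and in 4 further lists, with the median of each list as a thick line and dashed lines at a 2-fold change. The medians are 1.00 for the 37 genes, 0.72 for other replication factors and 0.69 for other nucleotide metabolism. They are 0.50 for the E2F and retinoblastoma list and 0.06 for polymerases of translesion and repair synthesis. The E2F and retinoblastoma list also holds Lin9, Lin37, Lin52, Lin54, Mybl2 and Foxm1, which belong to neither family.

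The tissue label was checked against marker genes. Of 10 markers of the ovarian surface epithelium 9 were above background in both lines, and Lhx9 was below it. The mean over the list was 10.28 to 10.35 on M0505 and 10.01 to 10.03 on STOSE arrays. Of these markers 6 fell and 1 rose, and Gata4 was the 1 called gene, lower by 1.38 in STOSE cells. Over all genes 24.8% fell and 31.6% rose, and 7.59% were called lower and 4.90% higher. A single call in a list this short is thus near the share of all genes. Epithelial markers moved in the direction opposite to the replication genes, with a mean of 8.54 to 8.57 in M0505 and 6.63 to 6.82 in STOSE cells. Of the 7 markers 5 fell, and the called genes were Krt19 (-5.56), Krt8 (-4.55) and Krt7 (-1.03). Cdh1 was near background in both lines (4.79 and 4.82). The mean of the stromal list was 7.38 to 7.45 on M0505 and 7.49 to 7.55 on STOSE arrays, with 5 of 7 above background in each line, Thy1 called higher (1.49) and Col1a2 lower (-2.45). That of the granulosa and steroidogenic list was 5.85 to 5.92 in M0505 and 4.66 to 4.72 in STOSE cells, with 3 and 4 of 8 above background, and its called genes were Star, which fell by 5.97, and Inha, which fell by 3.93. That of the endothelial list was 5.30 to 5.37 and 4.48 to 4.50, with 4 and 3 of 6 above background, and Kdr, its 1 called gene, fell by 5.17 from a mean of 9.58 to 4.41. That of the leukocyte list was 4.91 to 4.93 and 4.65 to 4.66, with 2 of 7 above background in each line. Its 1 called gene, Cd68, fell by 2.82 from 9.78 to 6.96, and Ptprc, which defines leukocytes, was below background in both lines (3.79 and 3.81). The part of these lists in the replication gene differences was not tested.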

How the data were processed

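Total RNA of 3 M0505 and 3 STOSE cultures was read on Affymetrix Mouse Gene 1.0 ST arrays, and groups were taken from the sample labels. The authors normalized the arrays by RMA, with Affymetrix Expression Console per the submitters' processing notes, and deposited log2 values in 1 table. Versions, annotation release and genome build are not given in the sources used here. The table also holds the authors' line means and fold changes, which were not used, and 0 columns of values were left without an array. RMA itself was not varied, since the signals of single probes were not analysed here.

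Of 28944 probe sets, 5414 without a symbol were left out, and the highest mean of 23530 gave 20405 genes. Genes were compared in R 4.3.3 by limma 3.58.1 (lmFit, then eBayes), two-sided, with no covariate and Benjamini-Hochberg adjustment over all genes. The code was tested on simulated data. Calls needed at least a 2-fold change besides an adjusted p under 0.05. Depth does not apply to arrays, and 3 arrays per line limit the precision. The members, lists and motifs were chosen with earlier results of these data known, so a pattern in them is a description. Per-array values are given for the called genes with the 3 largest changes of a role and for the smallest change of a role. They are also given for Orc1 and Orc5, chosen after their values were seen. From the other lists they are given for Impdh1 and E2f7, each the highest change of its list, and Ctps2, the lowest, picked by their values. Markers and background used the 95th percentile of olfactory receptor probe sets. Promoters and chromosomes came from RefSeq tables of GRCm38.p6, which placed 97.5% of genes on a chromosome, and were matched by symbol. Alternatives covered scaling, dim genes, probe sets, the variance model, tests, thresholds, single arrays and the replicate number as a block.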

Additional observations from a re-analysis of the deposited data

How the results depend on the processing

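No member called changed direction under any alternative run, and 0 were called lower at 2-fold or more. Without the fold threshold 34 of the 37 genes were higher, with 31.6% of all genes higher and 24.8% lower. The corresponding counts were 32 higher and 3 lower for other replication factors and 26 and 4 for other nucleotide genes. They were 10 and 5 for the E2F and retinoblastoma list and 4 and 5 for translesion polymerases. A 1.5-fold threshold gave 30 of the 37, with 11.002% of all genes higher and 14.1% lower. It gave 22 and 2 of other replication factors and 18 and 2 of other nucleotide genes. For the E2F and retinoblastoma list it gave 9 and 2, and for translesion polymerases 3 and 2. The methods' t-test without adjustment or fold threshold gave 34 higher and 1 lower of the 37, and 31.8% and 24.99% of all genes. For the lists it gave 32 and 3, 25 and 4, and 11 and 5 in the same order, and 4 and 5 for translesion polymerases. With the 2-fold threshold that test gave 19 of the 37, adjusted or not, beside 4.84% of all genes adjusted and 4.88% unadjusted. The treat test of limma against 2-fold, which asks for a change beyond 2-fold, left 9 of the 37, beside 2.47% and 4.87% of all genes. It left 7 other replication factors and 4 other nucleotide genes higher. In the E2F and retinoblastoma list it left 3 higher and 0 lower, and among translesion polymerases 1 higher and 0 lower. Leaving out the dimmest 50% of genes raised the share of genes called higher to 7.60%, over fewer genes tested. A further quantile normalization moved the median of the 37 to 1.08 and the genes of the E2F and retinoblastoma list called lower to 0. Centring on the genes with a symbol moved them to 1.20 and 0, and other replication factors called higher to 17; the cause was not tested.

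Leaving out each array in turn gave 17 to 21 calls among the 37 and a median of 0.99 to 1.06. The share of all genes called higher ran from 4.68% to 5.22%. Rfc2 fell short of 2-fold without M0505 replicate 1 (0.97), M0505 replicate 3 (0.99) or STOSE replicate 3 (0.98), and Rpa1 without M0505 replicate 3 (0.998). Without M0505 replicate 1, Pola1 (1.06), Rfc4 (1.03) and Lig1 (1.002) passed 2-fold, and Mcm6 (1.01) did without STOSE replicate 1. The deviations of same-numbered arrays from their line means correlated at 0.26, 0.04 and 0.25 over genes. Arrays of different numbers were not compared, so these values cannot decide whether the replicate numbers pair the lines. With the replicate number as a block 19 of the 37 genes were called higher, with 4.91% of all genes higher and 7.59% lower. Genes near background could not be ranked, and all 37 genes were above it. With 3 arrays per line and no probe signals, the precision rests on the cultures and the authors' RMA.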
